A study of Mus musculus with 9 samples.

Results

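The genes described here are those whose transcripts were low in every library of both knockdowns of 8-cell mouse embryos. The members were chosen by their deposited values: a row of the expression tables was taken when its lowest control value was at least 5 FPKM and the highest of its 6 knockdown values was below 0.6 of that lowest control value. FPKM is the number of fragments of a gene, corrected for its length and for the fragments sequenced in its library. The rule was met by 44 of 55335 rows. Of all rows, 6246 had a lowest control value of at least 5 FPKM and could have met it.

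Zygotes of ICR mice were injected with siRNA and cultured to the 8-cell stage. Nontargeting siRNA served for the control embryos, siRNA to *Mfn1* for MFN1-KD, and siRNAs to *H3f3a* and *H3f3b*, given together, for H3.3-KD. Each of the 3 groups had 3 libraries, made from pools of whole embryos with the Smart-Seq2 method, where an oligo-dT primer starts cDNA synthesis and PCR amplifies the product. The labels give 5 to 10 embryos per group and the methods give 10. The libraries are called biological replicates in the study, and whether those of a group came from separate injections is not stated, so the spread between libraries may be partly technical. siRNA lowers a transcript without removing it, and how evenly the cells of an embryo were depleted is not known from bulk RNA.

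MFN1 is a GTPase of the outer mitochondrial membrane that joins mitochondria to each other. H3.3 is the histone H3 variant that is placed into chromatin outside of DNA replication, encoded in the mouse by *H3f3a* and *H3f3b*. The cleavage-stage embryo depends on mitochondrial oxidation of pyruvate, and by the 8-cell stage it lives largely on transcripts of its own genome after most maternal messages have been cleared.

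The targets followed the labels. *Mfn1* was 51.57, 22.55 and 23.77 FPKM in the control libraries, 100.24, 89.52 and 40.02 FPKM in H3.3-KD, and 9.54, 4.4 and 1.15 FPKM in MFN1-KD. *H3f3a* was 1594 to 2110 FPKM in control, against 116.98 to 169.71 with H3.3-KD and 1288 to 1371 with MFN1-KD. *H3f3b* was 2895 to 3166 FPKM in control, against 171.26 to 310.7 with H3.3-KD and 2695 to 2836 with MFN1-KD. Every library of a knockdown was thus below every control library for its own target.

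Some libraries stood apart from their groups. The number of rows above 0 FPKM was 21643 to 22507 in control, 23655 to 24820 in H3.3-KD, and 15577 to 20842 in MFN1-KD, where library 3 was the lowest. Sequencing depth cannot be read from FPKM, and its part in these differences was not tested. *Pou5f1*, a pluripotency factor, was 5.1 to 8.9 FPKM in control, against 63.06 to 392.19 with H3.3-KD and 0.3 to 3.68 with MFN1-KD. The summed level of 21 pluripotency factors went the other way. It was 22578 to 29666 FPKM in control, against 12625 to 16184 with H3.3-KD and 29905 to 36212 with MFN1-KD. This sum does not stand for the genes of the list taken singly. Of the 20 tested (limma, adjusted p under 0.05 and over 2-fold), 7 rose and 3 fell with H3.3-KD. With MFN1-KD 0 rose and 0 fell. Medians of their log2 changes were 0.58 with H3.3-KD and -0.23 with MFN1-KD, beside 0.26 and -0.08 over all rows tested. The stage marker *Tead4* was at 30.42 to 39.12 FPKM in control, against 79.09 to 89.91 with H3.3-KD and 25.78 to 38.09 with MFN1-KD. Not all such markers were present, with *Cdx2* at 0.06 to 0.09 and *Zscan4c* at 0 to 2.65 FPKM in control. The summed level of 24 trophectoderm and morula markers was 220.85 to 305.68 FPKM in control, against 576.3 to 683.84 with H3.3-KD and 202.56 to 257.52 with MFN1-KD, and the part of these shifts in the results was not tested. Of the defining markers of cumulus cells, *Fshr*, *Cyp11a1* and *Inhba* were listed at 0 in all 9 libraries, while *Amhr2* was at 10.16 to 66.09 FPKM. The summed level of the 25 cumulus and granulosa markers was 224.08 to 236.37 FPKM in control, against 297.31 to 414.69 with H3.3-KD and 207.88 to 356.09 with MFN1-KD.

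By the GENCODE annotation (release M21, on the assembly mm10), 28 of the 44 rows are protein-coding genes. The other 16 are 7 entries listed as miRNA, 2 processed pseudogenes, and 1 each of processed transcript (*2010204K13Rik*), antisense RNA (*Gm31881*), snoRNA (*Gm22806*), scaRNA (*Gm22767*), snRNA (*Gm22208*), rRNA (*n-R5s193*) and miscellaneous RNA (*Gm22906*). Among the coding genes, 8 act in mitochondria: *Mrps11*, *Mrps12*, *Ndufs4*, *Sdhaf4*, *Coq7*, *Isca2*, *Etfbkmt* and *Nme6*. A further 3 encode histones (*Hist1h4i*, *Hist1h2ab* and *Hist1h1a*). The mitochondrial group was put together after the values were seen and carries no test.

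The rule fixes the direction, so the size of the fall is a description. The mean of the H3.3-KD libraries was 0.00% to 50.4% of the control mean over the 44 rows, with a median of 21.6%. The corresponding range for MFN1-KD was 0.00% to 42.8%, with a median of 22.3%. Among the 28 coding genes alone the medians were 34.2% with H3.3-KD and 29.1% with MFN1-KD. The control means of the coding genes ran from 7.25 to 804 FPKM, so the rows were not confined to the bottom of the scale. In RNA from whole embryos, fewer cells of a type and less RNA per cell cannot be told apart.

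**Figure D1:**
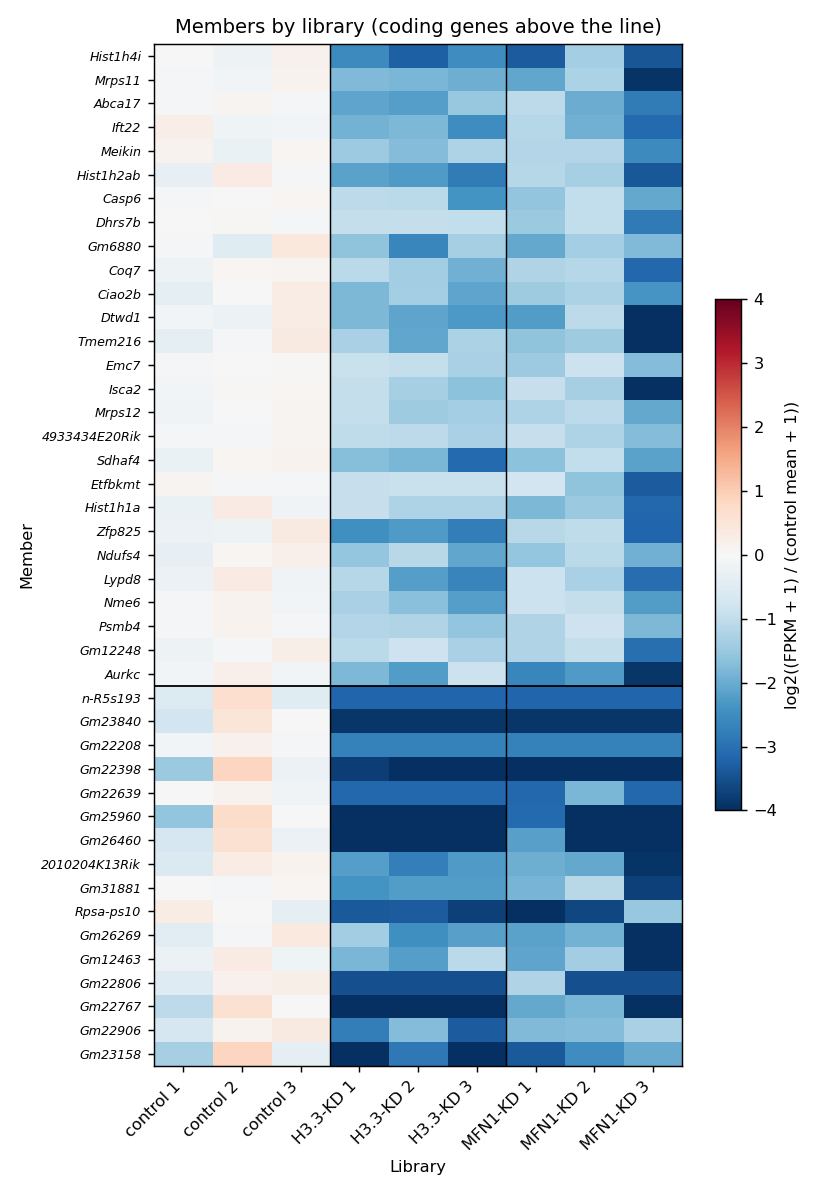
Colour gives log2((FPKM + 1) / (control mean + 1)) for 43 of the 44 rows in each of the 9 libraries, limited to between -4 and 4, with 27 coding genes above the horizontal line. All knockdown cells are blue because the rule requires it, and the column of MFN1-KD library 3 holds the lowest value, alone or tied, in 35 of the 44 rows.

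Both knockdowns were compared with the same 3 control libraries. A row that is high in those libraries by chance therefore enters both comparisons, and the number of shared rows cannot be read as if the comparisons were separate. The condition was met in H3.3-KD by 625 of the 6246 rows (10%) and in MFN1-KD by 333 (5.33%). The 44 rows that met both are 7.04% of the first set, 13.2% of the second and 0.704% of the rows that could have met the rule. Multiplying both shares gives 33.3 rows, so the observed number was 1.32 times the product. The product assumes separate controls and is given as arithmetic, not as a test. The mirrored rule, with each knockdown at 5 FPKM or more in its lowest library and the highest control below 0.6 of that, was met by 30 rows, beside 1654 with H3.3-KD and 139 with MFN1-KD. Its lower limit is set on the knockdown libraries, so the rows that could have met it are another set. They were not counted, and 30 is not compared with 44.

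**Figure D2:**
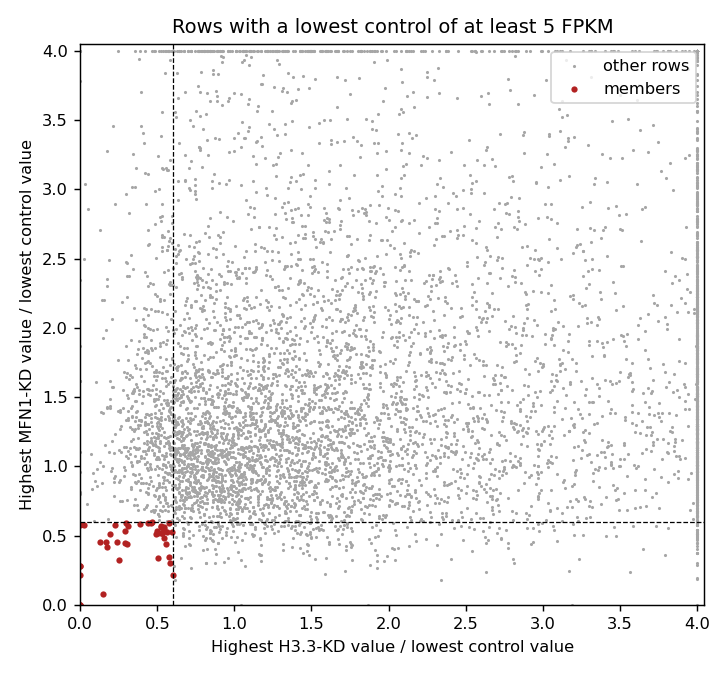
Each point is 1 of the 6246 rows with a lowest control value of at least 5 FPKM, with the highest H3.3-KD value (x) and the highest MFN1-KD value (y) divided by the lowest control value, and ratios above 4 drawn at 4. The dashed lines mark 0.6, and the 44 rows in red fill the lower left corner next to a dense population just outside it.

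The number of rows can only stay or rise when a library is left out, and it rose by different amounts. With control library 1 left out it was 146, against a product of 77.6, and library 1 was the lowest control in 30 of the 44 rows and in 31.9% of all rows that could have met the rule. The number was 84 without MFN1-KD library 2, against a product of 72.3, and 70 without MFN1-KD library 1, against 51. Among protein-coding rows only, 28 rows were observed against a product of 22.7. With library scaling by median ratios 49 rows were observed against a product of 50.1, and with upper-quartile scaling 60 against 59.1. These scalings kept 34 and 36 of the 44 rows.

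**Figure D3:**
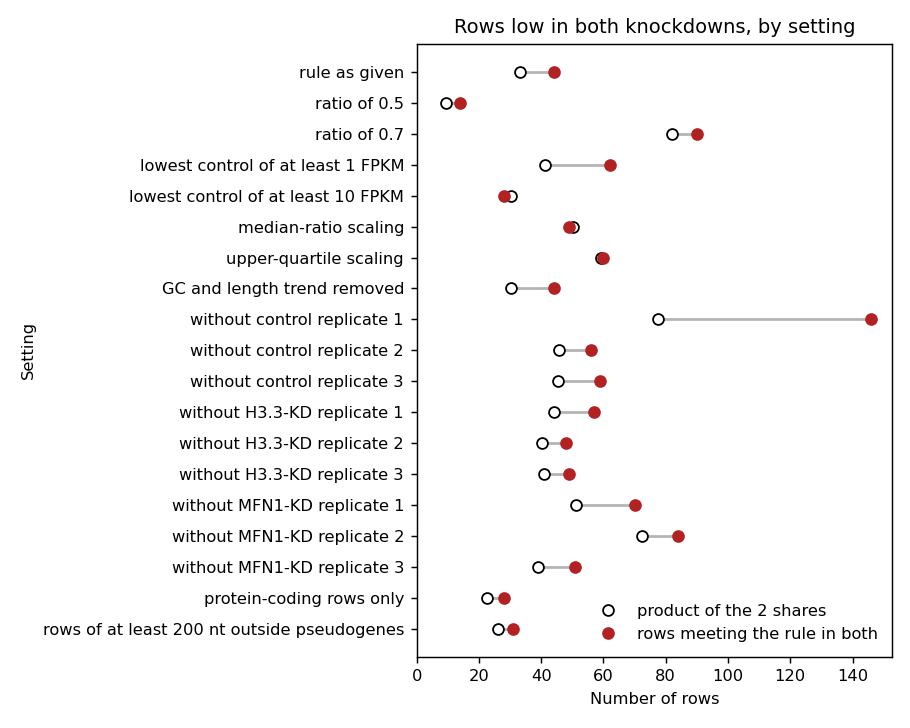
For each setting (y), the filled point is the number of rows that met the rule in both knockdowns and the open point is the product of the shares in each knockdown (x, number of rows). The filled point is at 44 and the open point at 33.3 for the rule as given, while both are close together at 49 and 50.1 with median-ratio scaling.

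Rows sat close to both limits. Just inside the ratio of 0.6 were *Aurkc* at 0.598, *Gm12248* at 0.597 and *Psmb4* at 0.596, and just outside were *Nfxl1* at 0.6, *Gm24289* at 0.603 and *Tipin* at 0.603. Just inside the lowest control value of 5 FPKM were *Gm22208* at 5.04, *n-R5s193* at 5.22 and *Gm22906* at 5.25 FPKM. Just outside were *Prdm14* at 4.47, *Nbdy* at 4.32 and *Mterf1b* at 4.18 FPKM.

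Mitochondrial ribosomes translate the few proteins encoded by mitochondrial DNA, and *Mrps11* and *Mrps12* encode proteins of their small subunit. *Mrps11* was 50.38, 47.94 and 56.84 FPKM in control, against 14.61, 14 and 12.57 with H3.3-KD and 11.62, 20.92 and 2.49 with MFN1-KD. *Mrps12* was 64.92, 71.26 and 76.85 FPKM in control, against 36.38, 25.9 and 27.09 with H3.3-KD and 29.75, 33.98 and 16.26 with MFN1-KD. MFN1-KD library 3 held the lowest value of both genes, and *Mrps11* fell further than *Mrps12* in either knockdown, to 26.5% and 22.6% of control against 42% and 37.5%.

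*Mrps11* (chr7:78783119-78792989) and *Mrpl46*, which encodes a protein of the large mitochondrial subunit, lie on opposite strands and share 173 nucleotides of exon. *Mrpl46*, which did not meet the rule, was 110.75, 116.68 and 144.46 FPKM in control, against 64.02, 77.78 and 48.46 with H3.3-KD and 68.1, 90.22 and 59.64 with MFN1-KD. The strand setting of the authors' counting is not given in the sources used here, and a kit of this kind does not mark strand, so reads from the shared stretch cannot be assigned to either gene.

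The mitochondrial ribosome list held 78 genes, all of which were tested and could have met the rule. It was met by 15 in H3.3-KD, by 5 in MFN1-KD and by 2 in both. These are 19.2% in H3.3-KD, beside 10% of all rows that could have met it, and 6.41% in MFN1-KD, beside 5.33%. The share in MFN1-KD was thus near that of all rows. In the linear model across all rows (limma, Benjamini-Hochberg adjusted p under 0.05 and over 2-fold), 26 of the 78 genes fell and 2 rose in H3.3-KD, and 5 fell and 0 rose in MFN1-KD. Over all rows tested 7.54% fell and 20.2% rose in H3.3-KD, and 2.05% fell and 1.09% rose in MFN1-KD, beside 33.3%, 2.56%, 6.41% and 0% of the list. Over the list, log2 fold changes had a median of -0.74 with H3.3-KD, beside 0.26 over all rows tested, and -0.56 in MFN1-KD, beside -0.08.

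The counts in MFN1-KD rest on an unstable call. Over all rows 267 were lower in MFN1-KD, and this became 0 without control library 2 or 3, 1 without H3.3-KD library 2, 30 without H3.3-KD library 1, 37 without control library 1, 169 without MFN1-KD library 3 and 509 without MFN1-KD library 2. The counts in H3.3-KD moved with the scaling of the libraries. Under median-ratio and upper-quartile scaling the median of all rows became -0.02 and -0.09 in place of 0.26, and the share of lower among all called rows became 45.4% and 50.6% in place of 27.2%. The mitochondrial ribosome list then had 40 and 41 genes lower and 0 higher, with medians of -1.08 and -1.16, so it stayed below the median of all rows.

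The respiratory chain moves electrons from NADH and succinate through ubiquinone to oxygen. *Ndufs4*, an accessory subunit of complex I, was 52.96, 70.71 and 77.04 FPKM in control, against 22.18, 30.54 and 15.2 with H3.3-KD and 22.37, 31.19 and 16.82 with MFN1-KD. *Sdhaf4*, an assembly factor of complex II, was 11.07, 14.17 and 15.08 FPKM in control, against 3.42, 3.07 and 0.66 with H3.3-KD and 3.62, 6.32 and 2.28 with MFN1-KD. *Coq7*, a hydroxylase late in ubiquinone synthesis, was 76.97, 93.42 and 94.52 FPKM in control, against 40.92, 33.26 and 22.59 with H3.3-KD and 37.62, 39.93 and 9.16 with MFN1-KD. The values of both knockdowns overlapped for all 3 genes, with *Ndufs4* at almost the same level in both.

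Of the 50 complex I genes that could have met the rule, 17 met it in H3.3-KD, 2 in MFN1-KD and 1, *Ndufs4*, in both. Of the 54 tested in limma, 26 (48.1%, beside 7.54% of all rows) fell and 0 rose in H3.3-KD, and 2 (3.7%, beside 2.05%) fell and 1 rose in MFN1-KD. For complexes II to V, 17 of 67 genes met the rule in H3.3-KD, 5 in MFN1-KD and 1, *Sdhaf4*, in both. Of the 71 tested, 26 (36.6%) fell and 2 rose in H3.3-KD, and 3 (4.23%) fell and 0 rose in MFN1-KD. The rule was thus met by 34% and 25.4% of these lists in H3.3-KD, beside 10% of all rows that could have met it, and by 4% and 7.46% in MFN1-KD, close to the 5.33% of all rows.

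Iron-sulphur clusters are built in mitochondria and passed to enzymes there and in the cytosol. *Isca2*, a factor for clusters inside mitochondria, was 57.93, 63.67 and 65.09 FPKM in control, against 31.47, 23.95 and 19.43 with H3.3-KD and 32.35, 24.11 and 1.65 with MFN1-KD. *Ciao2b*, a subunit of the complex that hands clusters to cytosolic and nuclear proteins, was 110.8, 144.04 and 174.98 FPKM in control, against 40.38, 54.96 and 32.22 with H3.3-KD and 53.43, 59.12 and 27.06 with MFN1-KD. MFN1-KD library 3 was the lowest for both, and *Isca2* there was far below the other 2 libraries of its group.

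*Nme6* and *Etfbkmt* complete the mitochondrial genes. *Nme6*, of the nucleoside diphosphate kinase family, was 119.3, 135.73 and 112.36 FPKM in control, against 49.3, 37.44 and 26.03 with H3.3-KD and 66.74, 63.41 and 25.02 with MFN1-KD. *Etfbkmt*, a methyltransferase of the electron transfer flavoprotein, was 10, 8.77 and 8.6 FPKM in control, against 4.39, 4.51 and 4.51 with H3.3-KD and 4.92, 2.32 and 0 with MFN1-KD. *Nme6* kept 30.7% of its control mean with H3.3-KD and 42.2% with MFN1-KD, whereas *Etfbkmt* kept 49% and 26.5%.

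Bases upstream of 3 of these genes are shown because they carry the CCAAT motif, a common promoter element bound by the factor NF-Y, and *Mrps12* carries it 4 times. They were taken from RefSeq promoter windows (GRCm38.p6), reading towards the gene, with CCAAT in capitals, and were shortened to the part that holds no annotated exon. *Mrps12* is chr7:28741822-28741991 on the minus strand, *Coq7* is chr7:118533357-118533606 on the minus strand and *Isca2* is chr12:84773153-84773250 on the plus strand.
Mrps12: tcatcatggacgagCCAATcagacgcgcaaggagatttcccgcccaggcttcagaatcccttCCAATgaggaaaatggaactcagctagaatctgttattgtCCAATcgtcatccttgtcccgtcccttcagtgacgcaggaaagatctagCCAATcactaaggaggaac
Coq7: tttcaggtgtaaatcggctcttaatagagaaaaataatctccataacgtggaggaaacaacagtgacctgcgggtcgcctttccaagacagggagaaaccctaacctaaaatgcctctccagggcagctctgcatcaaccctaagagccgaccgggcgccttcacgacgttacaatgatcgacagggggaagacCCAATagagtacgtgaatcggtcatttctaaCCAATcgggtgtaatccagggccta
Isca2: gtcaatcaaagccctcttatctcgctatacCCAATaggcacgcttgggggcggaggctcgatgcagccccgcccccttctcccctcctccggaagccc

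In *Mrps12* the motifs began 156, 108, 68 and 19 bases before the RefSeq start, in *Coq7* 56 and 25 bases before it, and in *Isca2* 87 bases before it. RefSeq windows were found for 22 of the 28 coding genes, as 25 windows that ran from 250 bases before the start to 50 after it. On either strand, CCAAT was in 48% of these windows, in 38.9% of the windows of all coding genes that could have met the rule and in 37.4% of all promoter windows. AAGATGGC was in 4 windows (16%), those of *Mrps11*, *Mrps12*, *Isca2* and *Ndufs4*, beside 5.76% and 2.75%. GGGCGG was in 48% beside 64% and 35.7%, and CCGGAA in 40% beside 35.5% and 14.9%. Of the 25 windows, CACGTG was found in 2 (8%, beside 11.3% of the windows of coding genes that could have met the rule and 7.15% of all). The TATAAA box was found in 1 (4%, beside 6.77% and 13.6%), the cyclic AMP response element TGACGTCA in 1 (beside 3.92% and 1.79%) and the NRF-1 motif in 1 (beside 12.5% and 4.6%). The CCAAT motif was thus only somewhat more frequent than in the background, and a match of letters does not show that a factor binds.

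*Mrps12* and *Isca2* share their upstream bases with genes that run the other way, and these neighbours did not behave alike. *Sars2*, which starts 172 bases from *Mrps12* and encodes the mitochondrial seryl-tRNA synthetase, was 6.93, 7.18 and 6.34 FPKM in control, against 12.72, 12.96 and 9.62 with H3.3-KD and 0.86, 2.05 and 0.5 with MFN1-KD. The log2 difference of *Sars2* between H3.3-KD and MFN1-KD was 2.63 (SE 0.34, n = 3 libraries each, limma adjusted p = 0.000308), with no overlap between these groups. *Npc2*, which starts 99 bases from *Isca2* and encodes a cholesterol-binding lysosomal protein, was 195.69, 202.66 and 181.09 FPKM in control, against 177.04, 182.55 and 147.29 with H3.3-KD and 125.25, 124.22 and 82.01 with MFN1-KD. Neighbours starting within 1000 bases on the other strand were found for 4 of the 28 coding genes (14.3%), beside 16.1% of all coding genes that could have met the rule. The others were *Dtwd1* with *Fam227b* at 137 bases and *Abca17* with *Abca3* at 882 bases.

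Histones package DNA, and their replication-dependent genes give messages that mostly end in a stem-loop without a poly(A) tail. *Hist1h4i*, a histone H4 gene, was 30.35, 26.51 and 34.28 FPKM in control, against 4.34, 2.23 and 4.58 with H3.3-KD and 2.13, 11.13 and 1.94 with MFN1-KD. *Hist1h2ab*, a histone H2A gene, was 7.39, 12.37 and 9.04 FPKM in control, against 1.43, 1.2 and 0.53 with H3.3-KD and 3.76, 3.22 and 0 with MFN1-KD. *Hist1h1a*, a linker histone gene, was 6.25, 10.08 and 6.87 FPKM in control, against 3.59, 2.73 and 2.71 with H3.3-KD and 1.49, 2.15 and 0 with MFN1-KD. All 3 lie on chromosome 13 as single-exon genes, and *Hist1h4i* had the lowest share of control in H3.3-KD apart from *Hist1h2ab* among the coding genes.

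The libraries were primed with oligo-dT, and whether these values come from polyadenylated histone messages was not tested. *Hist1h2ab* is 98.4% identical over 81.2% of its length to *Hist1h2ah* and 17 genes in all are at least 90% identical over at least 80% of it, so its reads may be shared with them. Of 87 histone genes in the list, 45 were tested and 18 could have met the rule. It was met by 8 (44.4%, beside 10% of all rows) in H3.3-KD, by 4 (22.2%, beside 5.33%) in MFN1-KD and by 3 in both. In limma 9 of the 45 (20%, beside 7.54% of all rows) fell and 5 (11.1%, beside 20.2%) rose in H3.3-KD, and 2 (4.44%, beside 2.05%) fell and 0 rose in MFN1-KD.

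**Figure D4:**
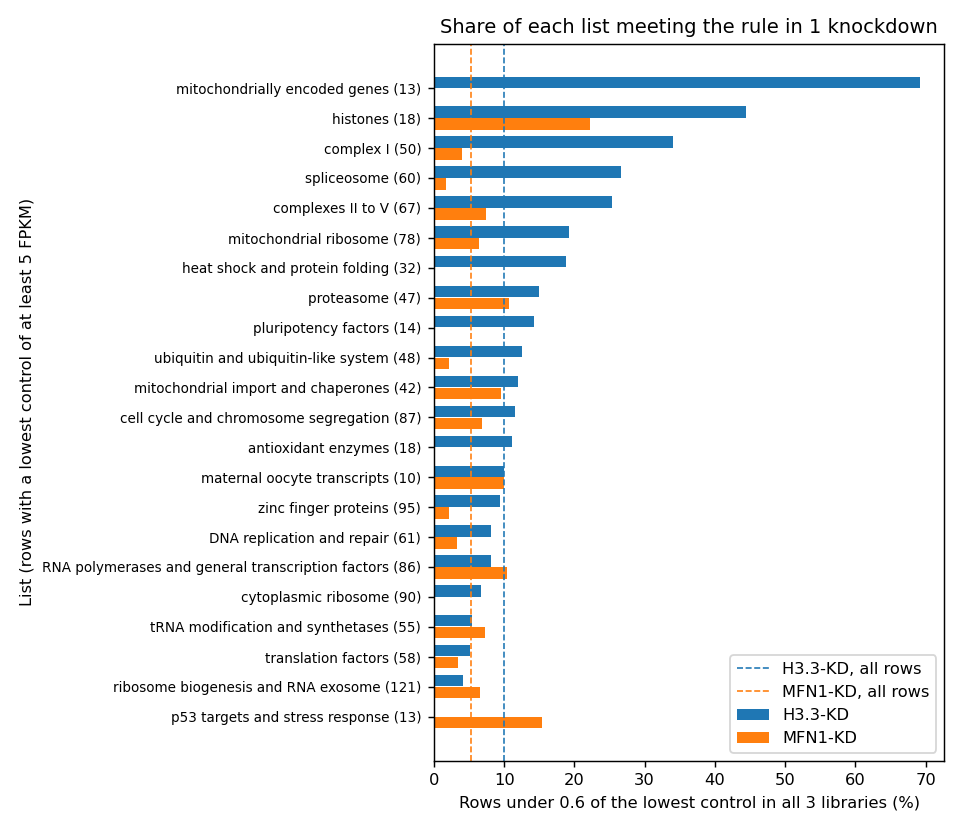
Bars give the share of each gene list (y, with the number of rows that could have met the rule) that was below 0.6 of the lowest control in all 3 libraries of H3.3-KD or of MFN1-KD (x, percent), for the lists with at least 10 such rows. Dashed lines mark the shares over all rows, 10% and 5.33%, and histones at 44.4% and 22.2% are above both lines.

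*Psmb4*, a subunit of the catalytic core of the proteasome, was the most abundant of the 44 rows. It was 759.04, 883.81 and 769.58 FPKM in control, against 354.84, 346.49 and 266.82 with H3.3-KD and 350.75, 452.41 and 228.25 with MFN1-KD. *Psmb4* was the only one of 47 proteasome genes to meet the rule in both, beside 7 (14.9%) with H3.3-KD and 5 (10.6%) with MFN1-KD. The shares of all rows that could have met it were 10% and 5.33%. In limma 14 of the 47 genes (29.8%, beside 7.54% of all rows) fell and 4 (8.51%, beside 20.2%) rose in H3.3-KD, and 4 (8.51%, beside 2.05%) fell and 0 rose in MFN1-KD.

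The next most abundant coding gene was *4933434E20Rik*, at 266.76, 256.81 and 297.96 FPKM in control, against 134.26, 132.13 and 110.66 with H3.3-KD and 145, 116.11 and 82.17 with MFN1-KD. *Emc7*, a subunit of the complex that inserts proteins into the endoplasmic reticulum membrane, was 27.93 to 29.67 FPKM in control, against 11.29 to 15.16 with H3.3-KD and 8.07 to 15.34 with MFN1-KD. *Dhrs7b*, a reductase of ether lipid synthesis, was 55.3 to 58.95 FPKM in control, against 28.34 to 28.91 with H3.3-KD and 19.76, 28.55 and 7.22 with MFN1-KD. *Dhrs7b* had the shallowest fall of the 44 rows in H3.3-KD, at 50.4% of control, and its 3 H3.3-KD libraries were within 1 FPKM of each other.

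*Aurkc* and *Meikin* act on chromosomes at meiosis. *Aurkc* encodes aurora kinase C, the catalytic subunit of the chromosomal passenger complex in oocytes and early embryos, and *Meikin* encodes a kinetochore protein of the first meiotic division. *Aurkc* was 85.66, 107.48 and 87.13 FPKM in control, against 26.26, 19.12 and 51.26 with H3.3-KD and 14.36, 18.53 and 5.43 with MFN1-KD. *Meikin* was 28.74, 21.35 and 27.63 FPKM in control, against 8.73, 7.05 and 10.47 with H3.3-KD and 10.85, 10.82 and 3.62 with MFN1-KD. *Aurkc* was lower in every MFN1-KD library than in every H3.3-KD library, whereas *Meikin* overlapped. *Aurkc* was the only one of 87 cell cycle and chromosome segregation genes to meet the rule in both knockdowns, beside 10 (11.5%) with H3.3-KD and 6 (6.9%) with MFN1-KD, which is near the 10% and 5.33% of all rows. Of the 110 tested in limma 12 (10.9%, beside 7.54% of all rows) fell and 30 (27.3%, beside 20.2%) rose in H3.3-KD, and 6 (5.45%, beside 2.05%) fell and 1 rose in MFN1-KD. With median-ratio scaling 19 fell and 19 rose in H3.3-KD, and with upper-quartile scaling 21 fell and 14 rose.

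The processed pseudogene *Gm12463* (chr4:44752277-44753125) also met the rule, and its transcript is 99.2% identical to that of *Aurkc* over its whole length. It was 205.1, 303.21 and 214.4 FPKM in control, against 67.71, 51.18 and 114.38 with H3.3-KD and 55.59, 90.76 and 10.7 with MFN1-KD. The order of the libraries within each knockdown was the same as for *Aurkc*, with H3.3-KD library 3 and MFN1-KD library 2 the highest of their groups. *Gm7789*, 94.9% identical to *Aurkc* and not among the 44 rows, was 26.19, 27.68 and 20.39 FPKM in control, against 23.02, 21.05 and 95.67 with H3.3-KD and 10.89, 18.33 and 3.04 with MFN1-KD. How reads that fit several of these copies were counted is not given in the sources used here, so *Aurkc* and *Gm12463* may not be separate rows of evidence.

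The other pseudogene differed from its parent. *Rpsa-ps10* (chr3:150072658-150073542) was 355.32, 287.13 and 221.3 FPKM in control, against 27.41, 27.73 and 20.5 with H3.3-KD and 7.94, 22.03 and 100.43 with MFN1-KD. Its transcript is 99.3% identical to *Rpsa*, which encodes a protein of the small cytosolic ribosomal subunit. *Rpsa* was 453, 549.16 and 381.1 FPKM in control, against 829.9, 848.03 and 690.31 with H3.3-KD and 728.16, 778.61 and 409.16 with MFN1-KD. The H3.3-KD libraries of *Rpsa* were above all controls (log2 fold change 0.78, SE 0.26, n = 3 libraries each, limma adjusted p = 0.0425), less than the 2-fold asked of a call. Scaling of the libraries lowered this to 0.43 (limma adjusted p = 0.172, median ratio) and 0.35 (limma adjusted p = 0.284, upper quartile). In *Rpsa-ps10*, unlike most of the 44 rows, MFN1-KD library 3 was the highest of the 6 knockdown libraries.

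**Figure D5:**
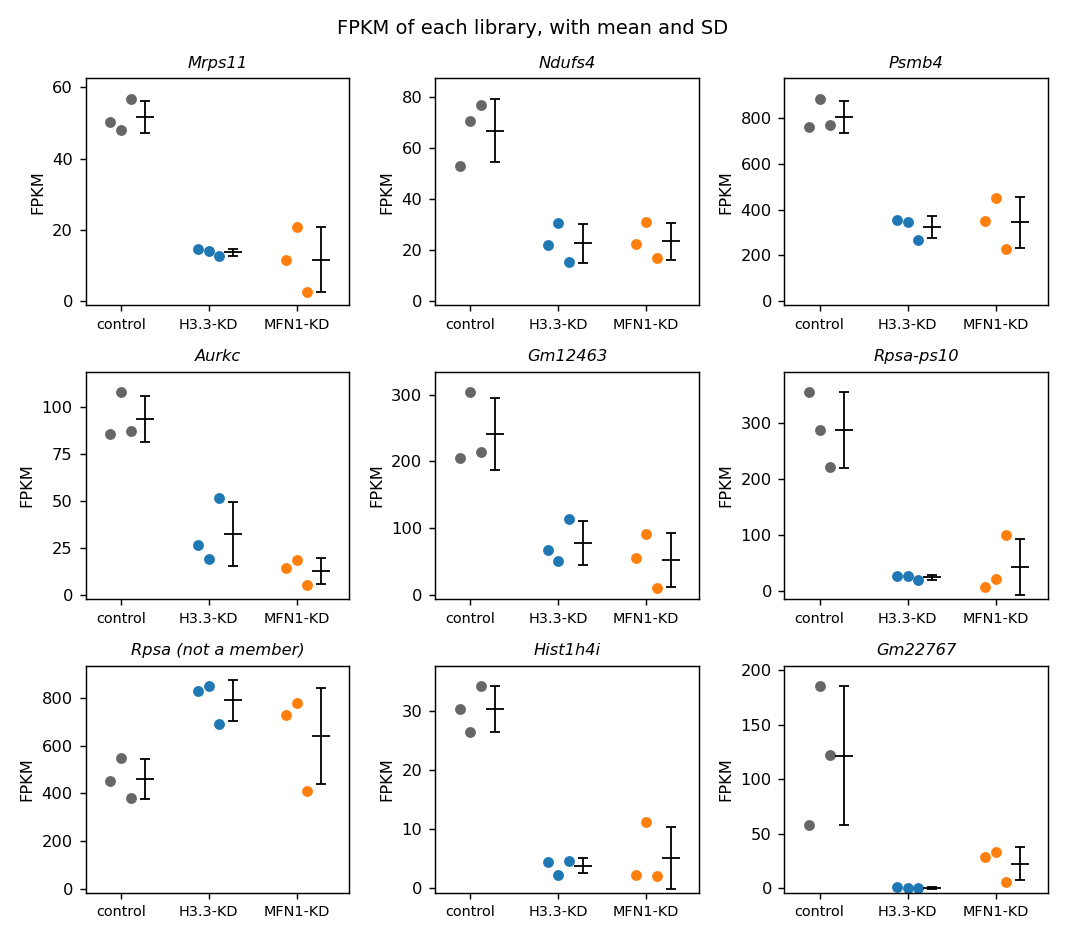
FPKM (y, linear) of 9 genes in the control, H3.3-KD and MFN1-KD libraries (x), with each library as a point and the mean and SD (n = 3) as black bars. *Aurkc* and *Gm12463* show the same order of libraries within each knockdown, *Rpsa* is higher in H3.3-KD where *Rpsa-ps10* is low, and *Gm22767* is near 0 in H3.3-KD and at 5.72 to 33.5 FPKM in MFN1-KD.

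*Tmem216* and *Ift22* encode proteins of cilia. *Tmem216*, a membrane protein of the ciliary transition zone, was 79.34, 99.79 and 133.76 FPKM in control, against 41.97, 24.19 and 42.94 with H3.3-KD and 33.4, 38.22 and 0 with MFN1-KD. *Ift22*, of the intraflagellar transport machinery, was 7.32 to 10.22 FPKM in control, against 0.67 to 1.72 with H3.3-KD and 0.1 to 3.31 with MFN1-KD. *Tmem216* was listed at 0 in 1 MFN1-KD library while the other 2 were close to the H3.3-KD values.

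*Casp6*, an executioner caspase, was 61.18 to 66.98 FPKM in control, against 11.4 to 30.68 with H3.3-KD and 14.52 to 31.8 with MFN1-KD. *Zfp825*, a zinc finger protein, was 39.31, 40.32 and 60.87 FPKM in control, against 7.75, 8.92 and 6.07 with H3.3-KD and 21.13, 22.72 and 4.27 with MFN1-KD. *Zfp825* kept 16.2% of its control mean with H3.3-KD and 34.2% with MFN1-KD, the opposite order from *Etfbkmt*. Of 293 zinc finger genes tested in limma, 17 (5.8%, beside 7.54% of all rows) fell and 52 (17.7%, beside 20.2%) rose in H3.3-KD, and 1 fell and 5 rose in MFN1-KD, so the shares in H3.3-KD were near those of all rows. The median of the zinc finger list in H3.3-KD was 0.23. With median-ratio scaling it was -0.05, with 23 genes that fell and 35 that rose, and with upper-quartile scaling -0.11, with 27 and 31.

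The remaining coding genes were lowly expressed. *Dtwd1*, a tRNA-modifying enzyme, *Abca17*, a membrane transporter, *Lypd8*, a membrane-anchored protein known from the colon, *Gm6880* and *Gm12248* had control means of 7.25 to 20.3 FPKM. Their H3.3-KD means were 1.29 to 5.32 FPKM and their MFN1-KD means 1.97 to 5.61 FPKM. Among the non-coding rows over 200 nucleotides, *2010204K13Rik* was 9.24, 17.91 and 15.68 FPKM in control, against 1.32 to 2.31 with H3.3-KD and 2.98, 2.73 and 0 with MFN1-KD. *Gm31881*, which shares 202 nucleotides of exon with *Gipc2* on the other strand, was 13.24 to 15.06 FPKM in control, against 1.9 to 2.23 with H3.3-KD and 3.19, 5.98 and 0.13 with MFN1-KD. *Gm22906* was 5.25, 9.94 and 11.86 FPKM in control and at most 3.08 FPKM in any knockdown library.

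Short entries were frequent among the rows. Transcripts under 200 nucleotides made up 11 of the 44 rows (25%), beside 2.43% of the rows that could have met the rule, and 7 of the 11 are listed as miRNA. A fragment library of this kind is not made to measure such RNAs, and FPKM divides by a length below that of most sequenced fragments. *Gm22208*, an snRNA entry of 110 nucleotides, was 5.04, 6.34 and 5.25 FPKM in the controls and listed at 0 in all 6 knockdown libraries. In each control library exactly 4 other rows of the same length held the identical value, and in 2 of the 3 it was the lowest value above 0 at that length. *n-R5s193*, a 5S rRNA entry with 73 near-identical copies, was 5.22, 13.62 and 5.43 FPKM in control and also listed at 0 in all 6 knockdown libraries. Values repeated exactly between rows of one length come in fixed steps, and the number of fragments behind them is not known.

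The 7 miRNA entries have almost one sequence. The entries *Gm22398*, *Gm22639*, *Gm25960*, *Gm26460*, *Gm26269* and *Gm23158* were 94.4% to 98.4% identical to each other over at least 119 nucleotides, and *Gm23840* was 90.5% to 100% identical to them over at least 65 nucleotides. All 7 share an unbroken run of 30 bases, printed because it ties these rows together, on the same strand in 6 of them. As an example of its place, *Gm22398* is chr4:117158309-117158433 on the minus strand.
Shared run: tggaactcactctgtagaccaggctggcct

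These letters belong to the B1 short interspersed repeat, which is scattered over the mouse genome in very many copies. The same run was found in transcripts of 746 of 55450 GENCODE genes (1.35%), in 279 of the 6172 annotated rows that could have met the rule (4.52%), and in 8 of the 44 rows. Transcripts of 2131 other genes held a stretch at least 90% identical to 80% or more of *Gm22398*, *Dhrs7b* and *4933434E20Rik* among them. The reads behind these 7 rows therefore cannot be assigned to one place, and the values say nothing about mature miRNAs.

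Control library 1 was the lowest control in 6 of the 7 entries, while *Gm22639* was 7.85, 8.73 and 6.93 FPKM in control. *Gm22398* was 13.49, 72.56 and 33.75 FPKM in control, against 2.01, 0 and 0 with H3.3-KD and 0, 0 and 1.04 with MFN1-KD. *Gm26269* was 23.38, 31.11 and 42.98 FPKM in control, against 11.74, 5.1 and 6.39 with H3.3-KD and 6.58, 7.95 and 0 with MFN1-KD. *Gm23158* was 13.94, 66.59 and 28 FPKM in control, against 0, 4.13 and 0 with H3.3-KD and 2.59, 5.68 and 8.25 with MFN1-KD. *Gm22398*, *Gm25960* and *Gm23158* differed more than 4-fold among the controls alone, and *Gm23840* was listed at 0 in all 6 knockdown libraries.

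Summed over the 50 miRNA entries that match *Gm22398*, the level was 769.18, 3228 and 2291 FPKM in control, against 147.54, 155.63 and 113.61 with H3.3-KD and 525.82, 1093 and 873.38 with MFN1-KD. H3.3-KD was below all other libraries, while MFN1-KD overlapped control through control library 1. Of the 30 entries that could have met the rule, 22 met it with H3.3-KD and 6 with MFN1-KD. Those 6 are among the 44 rows, and the shares over all rows that could have met it were 10% and 5.33%. In limma 26 of the 48 tested entries fell and 0 rose in H3.3-KD, while 4 fell and 0 rose in MFN1-KD. Over all rows tested 7.54% fell and 20.2% rose in H3.3-KD, and 2.05% fell and 1.09% rose in MFN1-KD. The entries were gathered by their match to a member and may share reads, so they are not separate observations.

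*Gm22767* and *Gm22806* lie in introns of expressed genes on the same strand. Small Cajal body RNAs and small nucleolar RNAs of this kind guide the modification of other RNAs and are usually cut from the introns of host genes. *Gm22767*, a scaRNA entry of 165 nucleotides at chr4:132838383-132838547 inside *Ppp1r8*, was 57.97, 184.93 and 121.91 FPKM in control, against 1.57, 0 and 0 with H3.3-KD and 28.7, 33.5 and 5.72 with MFN1-KD. *Ppp1r8*, a nuclear regulator of protein phosphatase, was 23.85, 24.27 and 20.61 FPKM in control, against 56.25, 67.32 and 62.16 with H3.3-KD and 21.9, 24.59 and 4.47 with MFN1-KD. The entry was lowest in the group where its host was highest. *Gm22806*, a snoRNA entry inside *Cks2*, was 6.99, 11.87 and 12.57 FPKM in control, 0 in all H3.3-KD libraries, and 4.01, 0 and 0 FPKM in MFN1-KD. *Cks2*, a regulator of cyclin-dependent kinases, was 2906 to 3409 FPKM in control, against 1748 to 3004 with H3.3-KD and 3093 to 4045 with MFN1-KD.

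The comparison of the knockdowns with each other uses no control library to set a direction and asks whether the rows were lower in one than in the other. The rule still caps the values of both groups, so large differences are harder to reach among these rows. In limma the median log2 difference, H3.3-KD minus MFN1-KD, was 0.00 over the 44 rows and 0.39 over the 13011 rows tested. The first median counts 3 rows listed at 0 in all knockdown libraries, whose difference is 0 by construction. The second moved with the scaling, to 0.04 with median-ratio and -0.007 with upper-quartile scaling, so the gap between these medians is not read as a result. At an adjusted p under 0.05 and over 2-fold, 1 of the 44 rows was lower in H3.3-KD, where 9.44% of all rows were, and 1 was higher, where 25.8% of all rows were. Of all rows called, 26.8% were lower in H3.3-KD, a share that became 44.3% with median-ratio and 48.5% with upper-quartile scaling. Without adjustment 6 of the 44 rows had a p under 0.05, where 48.2% of all rows did.

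The row lower in H3.3-KD was *Gm22767*, with a log2 difference of -3.80 (SE 0.67, n = 3 libraries each, limma adjusted p = 0.00165). All 3 of its H3.3-KD libraries were below all MFN1-KD libraries, which was so in 14.8% of all rows tested and in no other of the 44. The difference for its host *Ppp1r8* ran the other way, at 2.09 (SE 0.50, n = 3 libraries each, limma adjusted p = 0.00793). The row higher in H3.3-KD was *Aurkc*, with a log2 difference of 1.30 (SE 0.45, n = 3 libraries each, limma adjusted p = 0.0420). Its adjusted p ranged from 0.0238 to 0.383 over 18 fits, the reported one included, and was above the threshold in 13 of them, so this call did not hold up. All H3.3-KD libraries were above all MFN1-KD libraries in 3 of the 44 rows, *Aurkc* and *Hist1h1a* among them, which was so in 33.1% of all rows tested.

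For 3 rows listed at 0 in all 6 knockdown libraries no difference could be measured. The differences of the other 39 rows ran from -1.81 for *Gm23158* to 1.71 for *Tmem216*, with standard errors of 0.23 to 1.18. *Gm23158* (SE 0.73, n = 3 libraries each, limma adjusted p = 0.0721) did not pass the threshold. *Psmb4* differed by -0.05 (SE 0.25), *Ndufs4* by -0.06 (SE 0.33) and *Mrps12* by 0.20 (SE 0.30), which are smaller than their errors. An adjusted p above the threshold does not show that the levels were equal.

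Both comparisons with control were used by the rule, so counts of calls in them are printed as background and nothing is read from them. In limma 35 of the 44 rows were called lower in H3.3-KD, beside 7.54% of all 13011 rows, and 24 in MFN1-KD, beside 2.05%.

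Library 3 of MFN1-KD held most of the lowest values. It was the lowest of the 9 libraries, alone or tied, in 35 of the 44 rows and in 34.7% of the rows that could have met the rule, and the median row stood there at 0.0476 of its control mean, beside 0.742 over the rows that could have met the rule. It listed 15 of the 44 rows at 0, 6 of them coding, beside 2.29% of the rows that could have met the rule. No coding row of the 44 was at 0 in any other library. The highest of the 6 knockdown values, which decides the rule, came from MFN1-KD library 1 in 16 rows, from library 2 in 16 and from library 3 in 6, counting the 3 rows at 0 in all 6 libraries for each. Over the rows that could have met the rule, the shares for libraries 1, 2 and 3 were 11%, 19.1% and 15.8%. Without MFN1-KD library 3, 51 rows met the rule.

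The 44 rows also differed from the background in form. Median transcript length was 901.5 nucleotides beside 2598.5 for the rows that could have met the rule, and among coding genes 1475.5 beside 2900. Median GC content was 51.6% beside 48.1%, and 49.8% beside 48% among coding genes. Single-exon transcripts made up 45.5% of the rows beside 15.1%, and 17.9% of the coding genes beside 6.38%. The longest annotated transcript stood for each gene. *Casp6* and *Tmem216*, with 4 and 8 annotated transcripts, count as single-exon only because the longest of them has 1 exon. Chromosomes 4 and 13 held 6 rows each, 13.6% beside 6.66% and 4.2% of the background. Of the 7 miRNA entries 3 lie on chromosome 4, and all 3 histone genes lie on chromosome 13. Once trends over GC content and length were removed from every library, 30 of the 44 rows met the rule.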

How the data were processed

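RNA was measured in 9 pools of 8-cell mouse embryos. Reads were trimmed (cutadapt 1.16) and aligned to mm10 (STAR) by the authors. They deposited FPKM rounded to 2 decimals, and the program, annotation and strand setting are not given in the sources used here. FPKM holds no counts, so the count test of the study (Deseq2) was not run, and depth and counting error are unknown.

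The members were selected on FPKM as deposited. The members and gene lists were chosen with earlier results of these data known. log2(FPKM + 1) of the 13011 rows with a mean of at least 1 FPKM was fitted over the 3 groups with limma 3.58.1 (trend and robust, R 4.3.3) and no covariate. Calls needed a Benjamini-Hochberg adjusted p under 0.05 over all rows and more than 2-fold. With 3 libraries per group an exact permutation test of 1 value cannot go below 0.1, so none was used. All 44 members matched GENCODE M21 (98.8% of the 6246 background rows). Copies were found with BLAST 2.17.0 at 90% identity over 80% of the transcript. Motifs were searched as letters on both strands of RefSeq windows (GRCm38.p6). Python 3.11.15 was used with pandas 2.3.3, matplotlib 3.10.9 and numpy 2.4.6.

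Genes were named as the 10 members with the highest control mean, the 10 with the lowest ratio, up to 3 per list, those that differed between the knockdowns, the 3 on each side of each limit, and the targets. Short entries and pseudogenes were named as such. The other coding members are named to account for the rows, except 1 that counts in every total and is not reported here by name, and neighbours, hosts and copies were chosen after their values were seen. Alternatives were other ratios and lowest control values, 2 scalings, removal of GC and length trends, a pseudocount of 0.1, other filters, the replicate number as a block, only the 6 libraries compared, and each library left out. Counts among protein-coding rows and among rows of at least 200 nucleotides outside pseudogenes were added after seeing the data.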

Additional observations from a re-analysis of the deposited data

Results flagged for a closer look

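*Gm22767* and *Aurkc* passed the threshold in the direct test between the knockdowns. The call for *Aurkc* did not hold up, with an adjusted p above 0.05 in 13 of 18 fits, the reported one included (limma, 0.0238 to 0.383). The log2 difference, H3.3-KD minus MFN1-KD, was -3.80 for *Gm22767*, with all 3 H3.3-KD libraries below all 3 MFN1-KD libraries, and it passed the threshold in all 18 fits, the reported one included. Its control values, 57.97 to 184.93 FPKM, differed more than 3-fold among themselves. For *Aurkc* the difference was 1.30, with all 3 H3.3-KD libraries above all 3 MFN1-KD libraries, and *Aurkc* shares a near-identical transcript with *Gm12463*, whose difference was 0.92 (SE 0.64, n = 3 libraries each, limma adjusted p = 0.283).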

How the results depend on the processing

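The number of rows low in both knockdowns was 44 as reported. It was 14 at a ratio of 0.5, 90 at a ratio of 0.7, 28 with a lowest control value of at least 10 FPKM and 28 among protein-coding rows only. The product of the shares, 33.3, became 9.52 and 81.9 at these ratios, 50.1 with median-ratio and 59.1 with upper-quartile scaling. With each library left out in turn the number ran from 48 to 146 and the product from 38.9 to 77.6, where fewer libraries make the rule easier to meet. The observed number was below the product under 2 of 18 alternatives and at most 1.88 times it.

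Rows lower in H3.3-KD than in MFN1-KD, 1 as reported in limma, numbered 2 with a pseudocount of 0.1 or upper-quartile scaling, 3 after removal of GC and length trends, and 3 at an unadjusted p under 0.05, and 1 to 3 with each library left out. Rows higher in H3.3-KD, 1 as reported, numbered 0 in limma with no filter, either scaling or only the 6 libraries compared, 3 at an unadjusted p under 0.05, and 0 to 4 with each library left out. Over all rows 4585 were called between the knockdowns, and 2519 with a mean of at least 10 FPKM. Rows lower in MFN1-KD than in control, 267 as reported, numbered 2 with no filter, 176 after removal of GC and length trends, 0 with only the 6 libraries compared, 1178 at an unadjusted p under 0.05, and 0 to 509 with each library left out. Rows lower in H3.3-KD than in control, 981 as reported, numbered 1537 and 1718 with median-ratio and upper-quartile scaling, and 627 to 1203 with each library left out. The cause of these changes was not tested. The median GC content of the members exceeded that of the background by 3.53 percentage points, and by 1.86 among coding genes.

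Whether libraries with the same replicate number belong together was not tested. The correlations of same-numbered libraries' deviations from their group means ran from -0.05 to 0.16 over 9 pairs. Those of differently numbered libraries ran from -0.12 to 0.07 over 18 pairs. Above that range were control 2 with MFN1-KD 2 at 0.16 and H3.3-KD 3 with MFN1-KD 3 at 0.14. All other same-numbered pairs lay within it. With the replicate number as a block, 2 members were lower and 0 higher in H3.3-KD than in MFN1-KD, and 25 rows were lower in MFN1-KD than in control.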

Other observations

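Of the 29 gene lists, 22 held no row low in both knockdowns. Only 0.704% of all rows with a lowest control value of at least 5 FPKM were low in both. At so small a share, holding none is not read as a result for the lists below. Over all rows with a lowest control value of at least 5 FPKM, 10% were below 0.6 of the lowest control in all libraries of H3.3-KD and 5.33% in MFN1-KD. Of the 13 mitochondrially encoded genes, all with a lowest control value of at least 5 FPKM, 9 were below 0.6 of the lowest control in all 3 libraries of H3.3-KD and 0 in MFN1-KD. In limma (adjusted p under 0.05 and over 2-fold) 10 of these 13 fell with H3.3-KD and 0 with MFN1-KD, and 9 were lower in H3.3-KD than in MFN1-KD. Of the 60 spliceosome genes with such control values, 16 (26.7%) met the condition with H3.3-KD and 1 with MFN1-KD. The spliceosome list did not move in 1 direction. Of its 67 genes tested in limma, 18 (26.9%, beside 7.54% of all rows) fell and 16 (23.9%, beside 20.2%) rose in H3.3-KD. Its median log2 fold change there was 0.13, beside 0.26 over all rows. In H3.3-KD both lists named next were somewhat below the share of all rows by this condition. By limma a larger share of each list than of all rows fell. Of the 86 genes of RNA polymerases and general transcription factors, the condition was met by 7 (8.14%) with H3.3-KD and 9 (10.5%) with MFN1-KD, and by 0 in both. Of the 90 cytoplasmic ribosomal protein genes, 6 (6.67%) met it with H3.3-KD and 0 with MFN1-KD. Of the 105 polymerase and transcription factor genes tested in limma, 13 (12.4%, beside 7.54% of all rows) fell in H3.3-KD. Another 27 (25.7%, beside 20.2%) rose there. In MFN1-KD 7 (6.67%, beside 2.05%) fell and 0 rose. Of the 93 cytoplasmic ribosomal protein genes tested, 12 (12.9%) fell and 3 (3.23%) rose in H3.3-KD. In MFN1-KD 1 fell and 0 rose. The median of the ribosomal list in H3.3-KD was -0.36.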
